A study of Mus musculus with 6 samples.

Results

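The PDZ-LIM and cysteine-rich LIM genes encode small adaptor proteins that hold actin filaments, signalling enzymes and transcription factors together. They were chosen by name: *Pdlim1*, *Pdlim2*, *Pdlim3*, *Pdlim4*, *Pdlim5*, *Pdlim7* and *Ldb3* for the PDZ-LIM family, and *Csrp1*, *Csrp2* and *Csrp3* for the cysteine-rich LIM proteins. All 10 were among the 20654 genes of the count table, 7 in the first family and 3 in the second. The rule uses their names and no measured value, although these genes and the lists set beside them below were picked with earlier results of these data known.

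Their transcripts were counted in muscle satellite cells (MuSCs), the stem cells of skeletal muscle, from C57BL/6 mice. The study asked which transcripts change when MuSCs lack PIEZO1, a mechanosensitive calcium channel. The 3 control libraries are labelled wild type, whereas a legend of the study names the controls of the RNA-seq as *Pax7*CreERT2/+. The 3 *Piezo1* conditional knockout (cKO) libraries came from *Piezo1* flox/flox; *Pax7*CreERT2/+ animals, in which tamoxifen turns on Cre in cells that express *Pax7*. By that legend both groups carried CreERT2 at a *Pax7* allele, and the *Pax7* driver limits the deletion to MuSCs and their progeny. For ex vivo work the study describes daily injections of tamoxifen into mice. Cells were sorted as positive for VCAM1 and negative for CD31, CD45 and Sca1. They were then grown for 3 d on Matrigel with 1 µM 4-hydroxytamoxifen in the medium of both groups. The ages of the mice are not given in the sources used here. Nothing in the labels says that the libraries of a group came from separate mice, so p-values measure only the spread between these libraries.

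PDZ-LIM proteins bind α-actinin or filaments through an amino-terminal PDZ domain and recruit other proteins through LIM zinc fingers at the other end. The ALP subfamily (*Pdlim1* to *Pdlim4*) carries a lone LIM domain, whereas the Enigma subfamily (*Pdlim5*, *Pdlim7* and *Ldb3*) carries several. Cysteine-rich LIM proteins have a pair of LIM domains and no PDZ domain, and they move between actin bundles and the nucleus. In striated muscle, *Ldb3* (Cypher or ZASP), *Pdlim3* (ALP) and *Csrp3* (muscle LIM protein) sit at the Z-disc, the plate that anchors the thin filaments of the sarcomere, whereas *Csrp1* and *Csrp2* are best known from smooth muscle and fibroblasts.

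Upstream sequence is shown for the 3 genes on which the values below turn: *Ldb3* and *Pdlim3*, which encode Z-disc proteins, and *Pdlim7*, the most abundant member. RefSeq (GRCm38.p6) gave promoter entries for 8 of the 10 genes, in 12 windows, and each run below is the 250 bases before a transcription start, read 5′ to 3′ on the strand of the gene. Capitals mark matches to motifs searched on both strands: a CArG box (the site of serum response factor, SRF) in *Ldb3*, E-boxes (CANNTG, the site of MyoD family factors), M-CAT elements (CATTCC, the site of TEAD factors) and GC boxes (GGGCGG) in *Pdlim3*, and a GC box in *Pdlim7*. The windows are chr14:34588682-34588931 on the minus strand for *Ldb3*, chr8:45885237-45885486 on the plus strand for *Pdlim3* and chr13:55513447-55513696 on the minus strand for *Pdlim7*.
Ldb3: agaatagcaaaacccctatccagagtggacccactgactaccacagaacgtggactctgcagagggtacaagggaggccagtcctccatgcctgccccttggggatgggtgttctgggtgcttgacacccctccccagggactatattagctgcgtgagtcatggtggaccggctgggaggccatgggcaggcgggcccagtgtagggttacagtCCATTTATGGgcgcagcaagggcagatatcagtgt
Pdlim3: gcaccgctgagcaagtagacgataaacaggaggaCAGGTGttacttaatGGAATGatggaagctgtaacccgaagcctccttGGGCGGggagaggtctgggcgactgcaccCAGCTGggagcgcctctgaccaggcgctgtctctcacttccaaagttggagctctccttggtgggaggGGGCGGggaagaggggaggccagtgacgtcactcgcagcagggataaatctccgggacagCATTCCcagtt
Pdlim7: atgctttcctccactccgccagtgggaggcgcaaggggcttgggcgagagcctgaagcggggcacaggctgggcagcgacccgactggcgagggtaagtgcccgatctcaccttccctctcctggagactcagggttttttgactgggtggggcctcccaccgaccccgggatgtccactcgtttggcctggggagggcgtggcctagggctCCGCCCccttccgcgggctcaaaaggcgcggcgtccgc

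The CArG box of *Ldb3* began at base -35 from the first RefSeq start and at -109 from a second start. No other matched member had a CArG box, so that 2 of the 12 windows, which overlap, held it, and 1.47% of 32851 promoter windows held one. In *Pdlim3*, E-boxes began at -216 and -139, M-CAT elements at -201 and -11, and GC boxes at -168 and -71. M-CAT elements stood in 12.6% of all windows, and 1 of the 12 windows of the members, that of *Pdlim3*, held them. The GC box of *Pdlim7* began at -38. GC boxes were found in 6 of the 12 windows of the members against 32.7% of all windows, and E-boxes in 6 of 12 against 66.2%. No member had a MEF2 site, which 2.92% of windows held. A match describes the letters in these windows and does not show that a factor binds there.

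The libraries held 740936, 931168 and 891531 counts for control 1 to 3 and 810096, 726378 and 769295 counts for *Piezo1* cKO 1 to 3. Levels are given as CPM, counts scaled to a library total of 1000000, after TMM normalisation, a scaling that lines up the bulk of the genes across libraries. At the floor of 3 counts a gene has 3.26 to 4.2 CPM on this scale. Because each count is a cDNA molecule tagged with a unique molecular identifier (UMI) at its 3′ end, these levels can be set side by side between genes without division by length. *Piezo1* itself gave 11, 5 and 6 counts in control 1 to 3 and 7, 12 and 9 counts in *Piezo1* cKO 1 to 3, a log2 fold change of 0.42 (SE 0.46, edgeR adjusted p = 0.791). The groups overlapped, the 95% interval ran from -0.50 to 1.33, and so few counts give no check of the labels, by which the groups are named and the signs of all changes below are set. The study also measured *Piezo1* by RT-qPCR, which is not analysed here. It reports that a PIEZO1 agonist raised calcium in control but not in *Piezo1* cKO cells. From the RNA-seq it reports muscle differentiation as a signature that was higher in *Piezo1* cKO. A legend of the study counts more genes as up than as down. DESeq2 run here by the labels called more genes lower than higher, as set out below with the alternatives. Counts over the whole gene cannot separate transcripts that lack the deleted exons.

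None of the PDZ-LIM and cysteine-rich LIM genes passed the test for a difference between the groups among genes with enough counts. Of the 10 genes, 6 passed the filter on low counts, and edgeR called 0 of them at an adjusted p under 0.05, against 0.784% of the 8551 genes tested (0.468% higher and 0.316% lower). DESeq2, which gave an adjusted p for only 3 of the members, and limma-voom also called 0 members, against 0.674% and 0.842% of all genes they tested, and 1 member (*Pdlim7*) had an unadjusted p under 0.05 in edgeR, where 11.9% of all tested genes did. Of the 6 fitted changes, 4 were above and 2 below 0, with a median log2 fold change of 0.26 beside 0.002 over all tested genes. The 4 members with few counts (*Ldb3*, *Pdlim2*, *Csrp1* and *Csrp3*) were measured in a fit with no filter, in which 1 of them, *Ldb3*, was called, with the higher level in the cKO group. That fit called 0.67% of 19247 genes, 0.426% as higher.

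**Figure D1:**
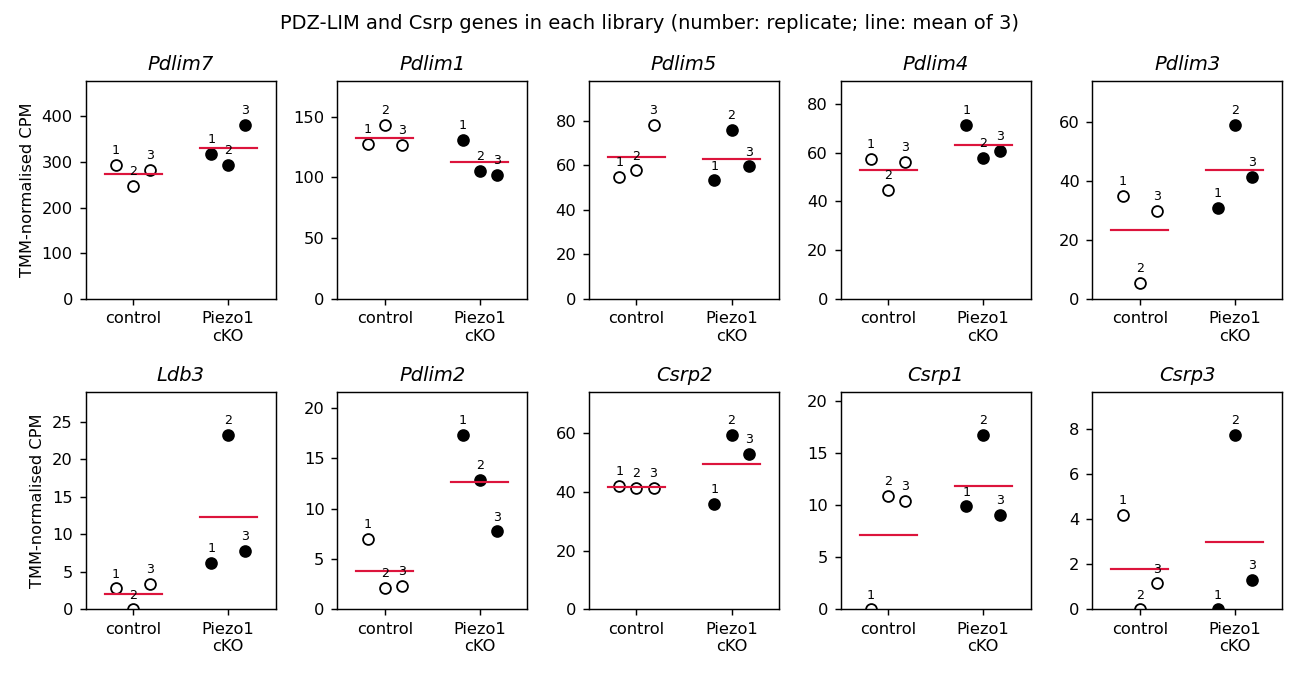
TMM-normalised CPM (vertical axis, a separate scale for each gene) of the 10 genes in the 3 control libraries (open circles) and the 3 Piezo1 cKO libraries (filled circles), with replicate numbers above the points and group means as red lines. The groups do not overlap for Pdlim4, Ldb3 and Pdlim2, and the lowest point of Pdlim3 is control 2.

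The levels of the genes spanned a wide range. *Pdlim7* was the most abundant, with 303.0 ± 45.1 CPM (SD over all 6 libraries), followed by *Pdlim1* with 122.6 ± 15.9 CPM. These first 2 genes stood apart: the lowest *Pdlim7* value (248 CPM) was above the highest *Pdlim1* value (143 CPM), and the lowest *Pdlim1* value (102 CPM) was above the highest *Pdlim5* value (78.2 CPM). *Pdlim5* (63.1 ± 11.0 CPM), *Pdlim4* (58.1 ± 8.68 CPM), *Csrp2* (45.4 ± 8.75 CPM) and *Pdlim3* (33.6 ± 17.5 CPM) followed, and each had a range that overlapped that of the next gene. *Csrp1* (9.48 ± 5.39 CPM), *Pdlim2* (8.23 ± 5.95 CPM), *Ldb3* (7.22 ± 8.26 CPM) and *Csrp3* (2.39 ± 3.03 CPM) were near the floor and could not be ranked among themselves.

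In the Enigma subfamily, *Pdlim7*, an adaptor on actin filaments that also binds kinases, lies on the minus strand of chromosome 13 (55495795 to 55513676, GRCm38). It gave 294, 248 and 282 CPM in control 1 to 3 and 319, 293 and 382 CPM in *Piezo1* cKO 1 to 3. The groups overlapped only where *Piezo1* cKO 2 lay just below control 1. The means were 275 ± 24.0 and 331 ± 45.7 CPM (SD, n = 3 each), and the fitted change was 1.21-fold (log2 0.27, SE 0.14, 95% interval 0.00 to 0.54, edgeR adjusted p = 0.413). It was above 0 in 15 of 15 alternative analyses, from 0.15 to 0.37, and was called in 0 of them.

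*Pdlim5*, or ENH, tethers protein kinase C isoforms and the myogenic inhibitor ID2 to the cytoskeleton. It gave 54.6, 57.6 and 78.2 CPM in the controls and 53.1, 75.9 and 59.4 CPM in the *Piezo1* cKO libraries. The groups covered the same range, with means of 63.5 ± 12.9 and 62.8 ± 11.8 CPM. The fitted log2 fold change was -0.02 (SE 0.20, 95% interval -0.43 to 0.38, edgeR adjusted p = 0.979), an interval that holds fold changes from 0.743 to 1.30. Its sign turned when only total counts were used for scaling (0.05). The gene (chromosome 3, 142239590 to 142395696, minus strand) has 12 coding transcripts with 9 different 3′ ends over 63738 bp, and gene counts do not tell its isoforms with and without LIM domains apart.

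*Ldb3* is the Enigma member of striated muscle, in which it binds α-actinin at the Z-disc. It lies on the minus strand of chromosome 14 (34526603 to 34588682) and has 7 coding transcripts with 7 different 3′ ends over 34669 bp. It gave 2, 0 and 3 counts in the controls and 5, 18 and 6 counts in the *Piezo1* cKO libraries, or 2.80, 0 and 3.45 CPM against 6.17, 23.2 and 7.75 CPM. The *Piezo1* cKO libraries were all above the controls, and *Piezo1* cKO 2 alone held most of their counts. All control libraries were at or under the floor of 3 counts. Pooled over each group, 5 counts stood against 29, a ratio per total count of 6.45 with a 95% interval of 2.47 to 21.3, which covers counting error only.

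In the fit with no filter, the log2 fold change of *Ldb3* was 2.52 (SE 0.65, 95% interval 1.26 to 3.79, edgeR adjusted p = 0.0196). DESeq2 gave 2.59 with no adjusted p. The call was held by the libraries numbered 2: without control 2 the log2 fold change was 1.90 (edgeR adjusted p = 0.407), without *Piezo1* cKO 2 it was 1.73 (adjusted p = 0.825), and without both, a choice made after the data were seen, it was 1.11 (adjusted p = 0.857). Over 11 alternatives the change was above 0 in 11 and called in 7, with adjusted p from 0.00477 to 0.857.

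**Figure D2:**
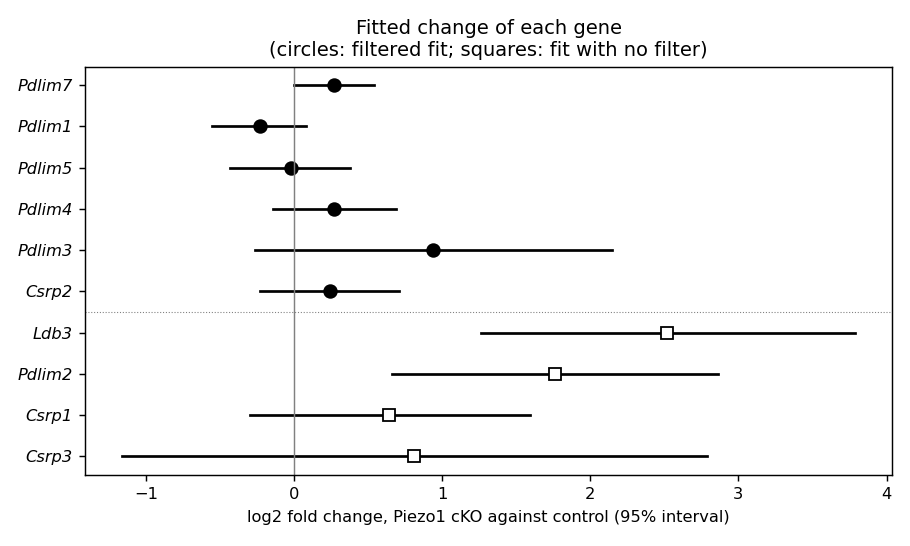
Fitted log2 fold change of each gene, Piezo1 cKO against control (horizontal axis), with 95% intervals, from edgeR fits over 3 libraries against 3. Circles are the 6 genes that passed the filter, and squares are the 4 genes measured in the fit with no filter. The intervals of Ldb3 and Pdlim2 lie above 0, that of Pdlim7 touches 0 (0.00 to 0.54), and the other 7 span 0.

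In the ALP subfamily, *Pdlim1* (CLP36), which links α-actinin to stress fibres in many cell types, was 1 of 2 members, with *Pdlim5*, whose fitted change was below 0. It gave 127, 143 and 127 CPM in the controls and 131, 106 and 102 CPM in the *Piezo1* cKO libraries. *Piezo1* cKO 1 fell among the controls, and the other 2 libraries lay below them. Means were 132 ± 9.51 and 113 ± 15.8 CPM, with a log2 fold change of -0.23 (SE 0.16, 95% interval -0.55 to 0.08, edgeR adjusted p = 0.588). The value was below 0 in 15 of 15 alternatives (-0.35 to -0.12). The gene lies at 40221173 to 40271842 on the minus strand of chromosome 19.

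*Pdlim4*, or RIL, an α-actinin partner on stress fibres (chromosome 11, 54054928 to 54069014, minus strand), gave 57.4, 44.6 and 56.4 CPM in the controls and 71.6, 57.9 and 60.7 CPM in the *Piezo1* cKO libraries. The groups did not overlap, although *Piezo1* cKO 2 exceeded control 1 by less than 1 CPM. Such a pattern, with all *Piezo1* cKO libraries higher, was found for 8.2% of tested genes, and the opposite pattern for 8.31%. The log2 fold change was 0.27 (SE 0.21, 95% interval -0.14 to 0.69, edgeR adjusted p = 0.655).

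*Pdlim3*, the muscle ALP (chromosome 8, 45885461 to 45919548, plus strand), showed the largest fitted change of the 6 members that passed the filter and also the largest standard error. It gave 35.0, 5.43 and 29.9 CPM in the controls and 30.9, 59.2 and 41.3 CPM in the *Piezo1* cKO libraries. Control 2, with 5 counts, was far below the rest, *Piezo1* cKO 2 was the highest, and the remaining 4 libraries lay between 29.9 and 41.3 CPM. The means were 23.5 ± 15.8 and 43.8 ± 14.3 CPM, and the fitted change was 1.92-fold with a 95% interval of 0.835 to 4.43 (log2 0.94, SE 0.52, edgeR adjusted p = 0.538). The log2 fold change was 0.44 without control 2 and 0.16 without both libraries numbered 2.

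*Pdlim2*, or mystique, a nuclear and cytoskeletal adaptor known for the degradation of NF-κB p65 and STAT factors (chromosome 14, 70164218 to 70177681, minus strand), gave 5, 2 and 2 counts in the controls and 14, 10 and 6 counts in the *Piezo1* cKO libraries. This was 7.0, 2.17 and 2.30 CPM against 17.3, 12.9 and 7.75 CPM, and the groups did not overlap. The pooled counts of 9 and 30 gave a ratio per total count of 3.71 (1.72 to 8.87, counting error only). In the fit with no filter the log2 fold change was 1.76 (SE 0.56, 95% interval 0.66 to 2.86, edgeR adjusted p = 0.142), above 0 in 11 of 11 alternatives. It passed the threshold in 1 of them, without control 1 (log2 2.42, adjusted p = 0.0493).

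Across the 10 genes the groups did not overlap for 3, *Pdlim4*, *Ldb3* and *Pdlim2*, each with the *Piezo1* cKO libraries higher, and for 0 in the other direction. Among the 19247 genes with at least 1 count, 6.13% were higher and 4.9% lower without overlap.

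Of the cysteine-rich LIM genes, *Csrp2* (chromosome 10, 110919789 to 110939622, plus strand), the smooth muscle LIM protein that bundles actin, was the only one above the floor of 3 counts in each library. It gave 42.0, 41.3 and 41.4 CPM in the controls and 35.8, 59.2 and 52.9 CPM in the *Piezo1* cKO libraries. The 3 controls lay within 1 CPM of each other, whereas the *Piezo1* cKO libraries lay on both sides of them. The log2 fold change was 0.24 (SE 0.24, 95% interval -0.23 to 0.71, edgeR adjusted p = 0.745).

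*Csrp1* (chromosome 1, 135720061 to 135752232, plus strand), its widely expressed relative, gave 0, 10 and 9 counts in the controls and 8, 13 and 7 counts in the *Piezo1* cKO libraries. The single 0, in control 1, allows up to 4.2 CPM (3 counts). The groups overlapped, and the fit with no filter gave a log2 fold change of 0.64 (SE 0.48, edgeR adjusted p = 0.725). *Csrp3* (chromosome 7, 48830398 to 48848033, minus strand), the muscle LIM protein of the Z-disc, gave 3, 0 and 1 counts against 0, 6 and 1. Of these 11 counts, 6 came from *Piezo1* cKO 2, and its log2 fold change of 0.81 (SE 1.01, edgeR adjusted p = 0.767) became -1.16 without that library. No difference in *Csrp3* was detectable at this depth.

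The make-up of each family was described by the share of each gene in the family's counts. *Pdlim7* held 50.8%, 49.5% and 48.7% of PDZ-LIM counts in the controls and 50.7%, 46.7% and 57.8% in the *Piezo1* cKO libraries. The Wilson 95% interval of the highest share, in *Piezo1* cKO 3, was 53.5% to 62.0%, and that of the lowest, in *Piezo1* cKO 2, was 42.3% to 51.2%, both for counting error only. The share of *Pdlim3* ran from 1.08% in control 2 to 9.43% in *Piezo1* cKO 2, and that of *Ldb3* from 0 of 461 counts in control 2, which allows a share of up to 0.651% (3 counts), to 3.69% (2.35% to 5.75%) in *Piezo1* cKO 2. *Pdlim1* held 28.6% in control 2 and 15.4% in *Piezo1* cKO 3, its highest and lowest shares.

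Summed over the 7 PDZ-LIM genes, the libraries held 578, 501 and 579 CPM in the controls and 629, 628 and 661 CPM in the *Piezo1* cKO group. The means were 553 ± 44.8 and 639 ± 18.8 CPM, a ratio of 1.16, and the groups did not overlap. The sum was not tested because the genes were chosen with earlier results of these data known. The cysteine-rich LIM genes summed to 46.2, 52.2 and 52.9 CPM against 45.7, 83.6 and 63.3 CPM, with *Piezo1* cKO 1 below all controls. *Csrp2* made up most of their counts, from 70.8% in *Piezo1* cKO 2 to 90.9% in control 1.

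**Figure D3:**
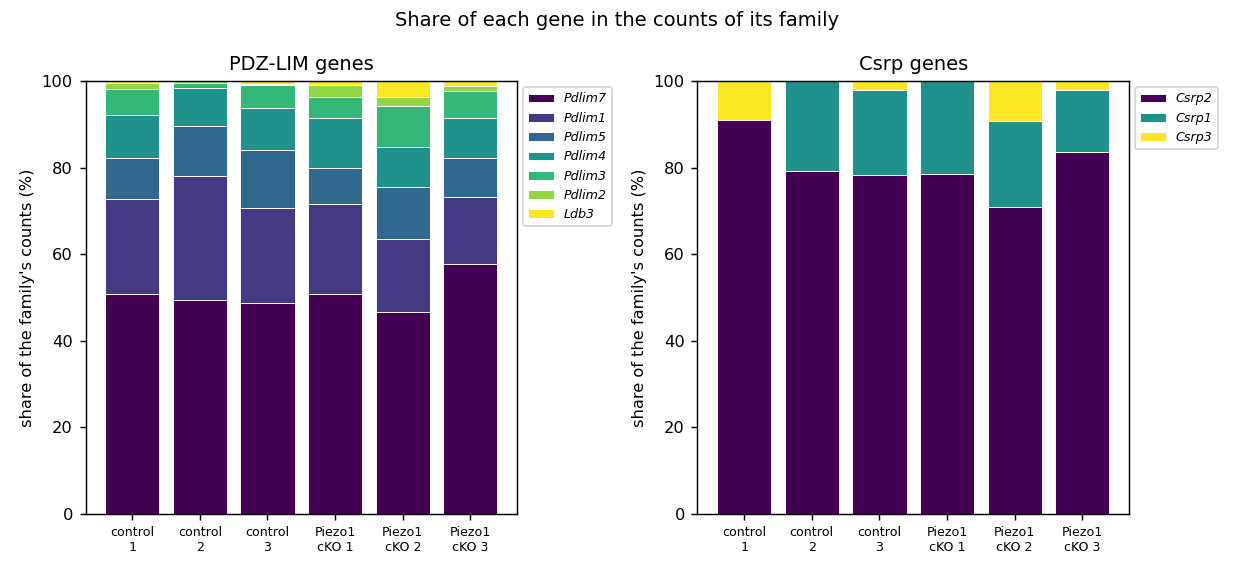
Share of each gene in the counts of the PDZ-LIM family (left) and of the Csrp family (right), in percent (vertical axis), 1 bar per library. Pdlim7 holds between 46.7% and 57.8% of PDZ-LIM counts and Csrp2 between 70.8% and 90.9% of Csrp counts. Pdlim3 and Ldb3 take their smallest shares in control 2 and their largest in Piezo1 cKO 2.

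The libraries did not fall in the same order for each member. Markers of muscle differentiation, of which 13 of the 16 listed were in the table, summed to 315, 135 and 299 CPM in the controls and 548, 1302 and 682 CPM in the *Piezo1* cKO libraries. The sum was lowest in control 2 and highest in *Piezo1* cKO 2, as were *Pdlim3* and *Ldb3*. Relative to its own mean, *Pdlim3* was at 0.162 in control 2 and 1.76 in *Piezo1* cKO 2, and *Ldb3* at 0 and 3.21, beside 0.246 and 2.38 for the marker sum. *Pdlim7* stayed between 0.818 and 1.26 of its mean and was highest in *Piezo1* cKO 3. Its lowest value was also in control 2, as were those of *Pdlim4* and *Pdlim2*, and *Csrp3* was at 0 there. *Csrp1*, *Csrp2* and *Csrp3* were also highest in *Piezo1* cKO 2, so that this order was not confined to *Pdlim3* and *Ldb3*. The part of differentiation in the values of *Pdlim3* and *Ldb3* was not tested. In such bulk libraries more differentiated cells and more RNA per cell cannot be told apart.

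**Figure D4:**
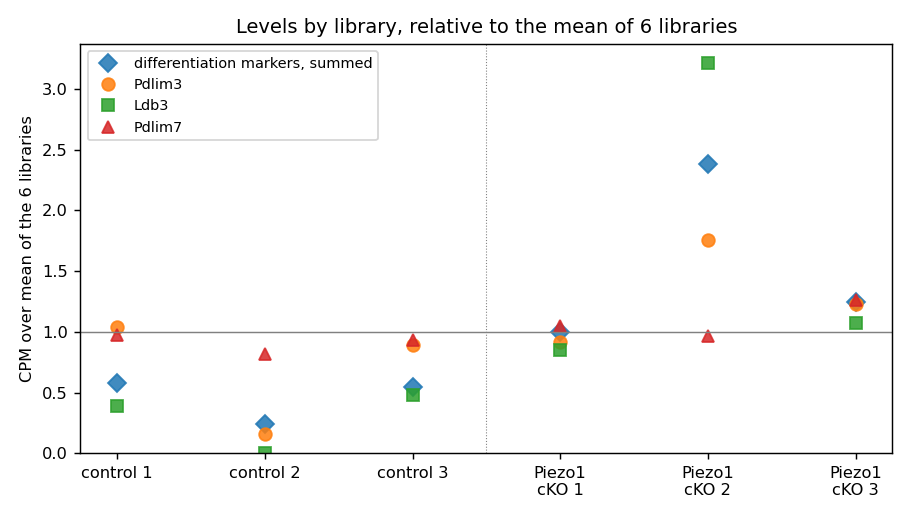
Level in each library (horizontal axis) divided by the mean of the 6 libraries (vertical axis, a ratio of CPM) for the sum of 13 differentiation markers, Pdlim3, Ldb3 and Pdlim7. Markers, Pdlim3 and Ldb3 are lowest in control 2 and highest in Piezo1 cKO 2, whereas Pdlim7, also lowest in control 2, stays between 0.818 and 1.26.

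The differentiation markers themselves included 5 tested genes, with 5 of 5 fitted changes above 0 and a median log2 fold change of 1.97, which was 1.21 among genes with at least 10 counts in every library, 0.87 without both libraries numbered 2 and 2.67 over the 13 genes with no filter. *Jph2*, which couples muscle membranes, was the single gene called by edgeR after the filter, against 0.784% of all tested genes (35.6 ± 15.1 to 70.1 ± 14.0 CPM, log2 0.99, edgeR adjusted p = 0.0236), and it was called in 3 of the 6 fits that left out a library. Its log2 fold change ran from 0.68 to 1.33 in those 6 fits. It was not called without control 2, *Piezo1* cKO 1 or *Piezo1* cKO 2, with edgeR adjusted p up to 0.369. Cyclic loess in limma-voom did not call it either (adjusted p = 0.0829), and DESeq2 gave it no adjusted p. Skeletal actin *Acta1* (log2 2.01, edgeR adjusted p = 0.241), the fusion gene *Mymk* (1.97, 0.370) and fast troponin T *Tnnt3* (1.19, 0.377) missed the threshold in this fit. These calls depended on the tool: limma-voom called the 5 genes (*Mymk* adjusted p = 0.00268, *Tnnt3* 0.00876), DESeq2 called *Acta1* (0.00485), and edgeR with no filter called *Mymk* (0.00419) and *Tnnt3* (3.37e-07) but not *Acta1* (0.153). With the replicate number as a block, edgeR also called *Acta1* (log2 1.95, adjusted p = 0.00401). Of the 6 fits that left out a library, *Acta1* was called in 2, *Mymk* in 1 and *Tnnt3* in 1.

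The proteins that PDZ-LIM proteins bind, and other parts of the Z-disc, gave 2 calls among 12 tested genes of 21 listed, each higher in the libraries labelled *Piezo1* cKO, where 0.468% of all tested genes were called higher. *Actn3*, the α-actinin of fast fibres, rose from 62.4 ± 16.6 to 143 ± 15.6 CPM (log2 1.20, SE 0.18, edgeR adjusted p = 1.03e-05). *Palld*, an actin scaffold of stress fibres and Z-discs, rose from 75.4 ± 14.4 to 148 ± 9.57 CPM (log2 0.98, SE 0.17, edgeR adjusted p = 0.000303). Each was called in 6 of the 6 fits that left out a library. *Actn1*, the non-muscle α-actinin, had a log2 fold change of -0.46 (edgeR adjusted p = 0.122), and *Tpm2*, a tropomyosin, of 0.77 (adjusted p = 0.579). The median of the list was 0.04, beside 0.002 over all tested genes. *Myoz2*, *Myoz3* and *Myot*, Z-disc genes of mature fibres, had 0 counts in each library.

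Other LIM proteins of the actin cytoskeleton, 39 listed and 24 tested, held 0 called genes, with 17 changes above and 7 below 0, a median of 0.12, and 4 genes at an unadjusted p under 0.05, beside 0.784% called, a median of 0.002 and 11.9% at an unadjusted p under 0.05 over all tested genes. limma-voom and DESeq2 also called 0. *Tgfb1i1* (Hic-5), a focal adhesion adaptor, had the smallest p (40.3 ± 5.32 to 69.2 ± 12.3 CPM, log2 0.76, edgeR adjusted p = 0.0696). The actin regulator *Limk1* (log2 1.04, adjusted p = 0.272), the junction protein *Lmo7* (0.68, 0.308) and the actin bundler *Lasp1* (-0.35, 0.320) followed.

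Genes known as targets or partners of SRF and its actin-sensing cofactors, the MRTFs, which read the state of the actin cytoskeleton, gave a call in each direction. Of 31 listed genes 22 were tested, 1 was called higher, 1 lower and 20 not at all (0.468% higher and 0.316% lower over all tested genes), and the median log2 fold change was 0.12. *Ccn1*, a secreted matrix protein, fell from 727 ± 149 to 449 ± 84.2 CPM (log2 -0.70, SE 0.15, edgeR adjusted p = 0.00593). The myosin light chain *Myl9* rose from 81.4 ± 27.8 to 148 ± 36.0 CPM (log2 0.89, SE 0.20, edgeR adjusted p = 0.0227). *Ccn1* was not called without *Piezo1* cKO 2 (edgeR adjusted p = 0.179) or without *Piezo1* cKO 3 (0.0523). *Myl9* was not called without control 3 (edgeR adjusted p = 0.0652) or without *Piezo1* cKO 2 (0.369). Without *Piezo1* cKO 2 only 6 genes were called in the whole table. Over the 6 fits that left out a library the log2 fold change ran from -0.84 to -0.55 for *Ccn1* and from 0.75 to 1.18 for *Myl9*. Cyclic loess in limma-voom did not call *Ccn1* (adjusted p = 0.0572), nor DESeq2 *Myl9* (0.0863). *Ccn2* (log2 -0.82) and *Egr1* (0.55) had an adjusted p of 0.159 each. In the fit with no filter *Ccn2* was called lower (log2 -0.83, edgeR adjusted p = 0.00114), so that this list held 1 higher and 2 lower calls there. *Ldb3*, whose promoter window held the CArG box printed above, was not in this list.

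**Figure D5:**
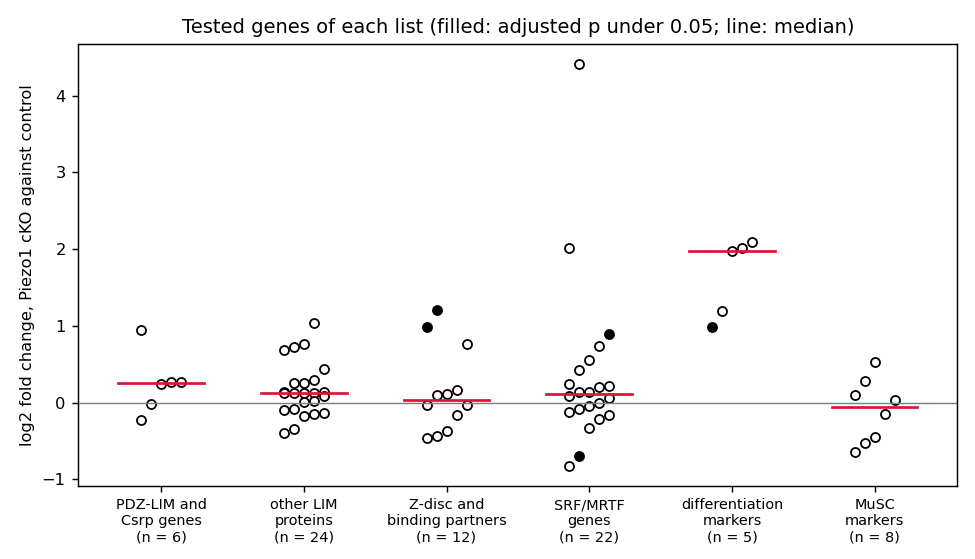
Fitted log2 fold change, Piezo1 cKO against control (vertical axis), of the tested genes of 6 lists, 1 circle per gene, filled where the edgeR adjusted p was under 0.05, with the list median as a red line. The 6 PDZ-LIM and Csrp genes have a median of 0.26 and no filled circle, and the 5 differentiation markers a median of 1.97 and 1 filled circle. A gene in more than 1 list is drawn in each.

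The label of the cells was set against their markers. All 10 listed MuSC and myoblast markers were in the table, led by *Myod1* (1348 CPM on average), with 0 of 8 tested genes called and a median log2 fold change of -0.06. *Sdc4* had a log2 fold change of -0.53 (edgeR adjusted p = 0.0617), *Cdh15* of 0.53 (0.118), *Vcam1*, on which the cells were sorted, of -0.45 (0.185), and *Pax7* of -0.64 (0.482).

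Several members are also expressed in smooth muscle and fibroblasts, so that the markers of those cells are given beside them. Of 10 smooth muscle and pericyte markers 9 were in the table and 3 tested, with 0 called. They summed to 301, 192 and 546 CPM in the controls and 489, 602 and 479 CPM in the *Piezo1* cKO libraries. *Acta2*, also an actin of cultured myoblasts, made up most of this in the group means (229 and 383 CPM, edgeR adjusted p = 0.759). In control 2, however, *Acta2* was at 71.7 CPM, below *Smtn* at 89.1 CPM. The defining gene *Myh11* had 0 counts in 5 libraries and 1 in *Piezo1* cKO 2. *Cspg4* (log2 0.76, adjusted p = 0.143) and *Smtn* (-0.07) were the other tested genes. *Rgs5* of the same list, named after its values were seen, was near the floor. It gave 0, 0 and 1 counts in the controls and 2, 4 and 6 counts in the *Piezo1* cKO libraries. With no filter it was not called (edgeR adjusted p = 0.236).

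Of 8 fibroblast markers 7 were in the table, and 1 of 3 tested was called lower, against 0.316% of all tested genes. *Dcn*, a matrix proteoglycan, fell from 30.9 ± 10.1 to 6.73 ± 3.01 CPM (log2 -2.17, SE 0.38, edgeR adjusted p = 0.000391). It gave 18, 23 and 37 counts in the controls and 8, 5 and 3 counts in the *Piezo1* cKO libraries, the last at the floor. It was called in 6 of the 6 fits that left out a library, and DESeq2 gave it no adjusted p. *Cd34* had a log2 fold change of -1.59 (adjusted p = 0.182) and *Col3a1*, the most abundant at 223 CPM, of 0.41 (0.266). In the fit with no filter *Cd34* was called lower (log2 -1.60, edgeR adjusted p = 1.02e-11). Which cells in these bulk libraries held the *Cd34* transcripts was not tested. The list summed to 267, 381 and 445 CPM in the controls and 326, 329 and 307 CPM in the *Piezo1* cKO libraries. *Ly6a*, which encodes the sort marker Sca1 and was named after its values were seen, gave 2, 2 and 3 counts in the controls. It gave 5, 8 and 9 counts in the *Piezo1* cKO libraries, so that it lay on the opposite side to *Dcn* and *Cd34*. With no filter it was not called (log2 1.68, edgeR adjusted p = 0.335). *Pdgfra* (log2 -1.44), *Lum* (-1.13) and *Col1a1* (-0.84), also named after their values were seen, lay on the side of *Dcn* in that fit. They had few counts and were not called. *Col3a1*, like *Ly6a*, lay above 0, and the list median there was -1.13. The sort would remove fibroblastic cells that carry Sca1, and the part of any that remained in the values of the LIM genes was not tested.

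Markers of other cells were scarce. The 5 endothelial markers in the table summed to at most 7.0 CPM in a library, with *Kdr* the most abundant (1.33 CPM) and *Tie1* at 0 in each. The 3 immune markers summed to 9.80 to 27.2 CPM, with *Cd68* the most abundant (11.0 CPM). The sort would remove endothelial and immune cells.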

How the data were processed

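The deposited values are counts of UMIs per gene, not normalised, with 1 column for each of the 3 control and 3 *Piezo1* cKO libraries. Per the labels and methods, the authors made cDNA from 500 pg of RNA per library with oligo-dT primers that carry a barcode, ran 12 cycles of PCR, and used STAR 2.7.9a (GRCm38), featureCounts 2.0.1 and UMI-tools 1.1.1. Oligo-dT priming places counts near transcript 3′ ends, so that the levels do not tell isoforms apart. How reads that map to several genes, or their strand, were treated is not given in the sources used here.

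All genes were fitted with edgeR 4.0.16 in R 4.3.3 (TMM, a minimum count of 10, robust quasi-likelihood test, Benjamini-Hochberg adjustment over 8551 genes, called under 0.05). Members that missed the filter were taken from a fit of the 19247 genes with at least 1 count. DESeq2 1.42.0, limma 3.58.1, other scalings and filters, a replicate block, an adjusted p under 0.1 and each library left out in turn were alternatives. Leaving out both libraries numbered 2, and combining no filter with other choices, were added after the data were seen. The members and gene lists were chosen with earlier results of these data known. Named genes are the members, the called genes of each list, filled up to 4 by p, the most abundant and the absent markers, and the 5 genes most like *Pdlim7*. A further marker list is not reported here. Motifs were searched in the 250 bases before each start. The libraries are distinct (chi-square over degrees of freedom of 1.64 to 2.61 within groups).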

Additional observations from a re-analysis of the deposited data

How the results depend on the processing

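Of the members that passed the filter, *Pdlim7*, *Pdlim4*, *Csrp2* and *Pdlim3* kept a change above 0 and *Pdlim1* a change below 0 in the alternatives run, and none was called. *Pdlim5* (-0.02) turned to 0.05 with total counts only, and ran from -0.18 to 0.15 when a library was left out. In fits with no filter, *Ldb3* (2.52) ran from 1.73 to 3.16 when a library was left out (1.90 without control 2) and was 1.11 without both libraries numbered 2, *Pdlim2* (1.76) from 1.47 to 2.42, and *Csrp3* (0.81) from -1.16 to 2.13, with -1.76 without both libraries numbered 2. *Piezo1* (0.42) was -0.08 in that last fit.

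The number of genes called across the table (67, 40 higher and 27 lower) moved to 27 with DESeq2 (12 and 15, of which 18 genes are shared with edgeR), 129 with no filter (82 and 47) and 124 at an adjusted p under 0.1 (76 and 48). The study, which also ran DESeq2 with default parameters, gives the same total in a legend. There, however, 15 genes are counted as up and 12 as down, so that the directions are exchanged. For this count the legend does not state which group is the reference. Whether the labels or the contrast account for the exchange was not tested. Without both libraries numbered 2, edgeR called 22 genes higher, and cyclic loess gave 14 lower. With total counts only, 45 of 63 calls were higher, against 40 of 67. Leaving out a library gave 6 to 155 calls (4 to 96 higher, 2 to 59 lower), with 6 without *Piezo1* cKO 2, 29 without *Piezo1* cKO 3, 105 without control 1, 130 without control 3 and 155 without *Piezo1* cKO 1. Members called went from 0 to 1 with no filter. The other LIM proteins went from 0 called to 1 with no filter, with at least 10 counts in every library, at an adjusted p under 0.1, and in 3 fits that left out a library (0 to 1). SRF and MRTF genes went from 2 to 4 with limma-voom and from 1 to 3 when a library was left out. Differentiation markers went from 1 to 5 (limma-voom), 4 (cyclic loess), 6 (no filter) and 3 (without both libraries numbered 2), and to 2 in some fits that left out a library (1 to 2). MuSC markers went from 0 to 1 with no filter, with at least 10 counts in every library and at an adjusted p under 0.1, and from 0 to 2 when a library was left out. Fibroblast markers went from 1 to 2 (limma-voom, cyclic loess, no filter, without both libraries numbered 2), to 0 with at least 10 counts in every library, and from 1 to 2 when a library was left out. The causes were not tested.

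Libraries with the same replicate number did not deviate together (mean correlation -0.111, and 0 of 6 libraries closest to their own number). With 3 libraries per group this check cannot show that the numbers are unrelated, and the labels do not say what they stand for. With the replicate number as a block edgeR made 46 calls, 26 higher and 20 lower, of which 36 are shared with the fit without it, and no member that passed the filter was called. *Ccn1* (edgeR adjusted p = 0.0716) and *Jph2* (0.0947) were not called with the block. *Acta1* was called with the block (edgeR adjusted p = 0.00401) but not in the main fit (0.241). DESeq2 and limma-voom, run without a block, also called *Acta1*. With under 10 counts in most libraries, *Csrp1*, *Csrp3*, *Ldb3* and *Pdlim2* are limited by depth.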

Other observations

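Among the other LIM proteins, the gene called in the fit with no filter was *Fhl3*, which was named after its values were seen. FHL3 is an actin-associated LIM protein known as a partner of MyoD in myoblasts. It gave 1, 1 and 2 counts in the controls and 10, 9 and 10 counts in *Piezo1* cKO 1 to 3, or 1.60 ± 0.63 against 12.3 ± 0.666 CPM (SD, n = 3 each). All control libraries were under the floor of 3 counts, and the groups did not overlap. The log2 fold change was 2.82 (SE 0.68, edgeR adjusted p = 0.00775), and it stayed between 2.59 and 3.16 when a library was left out. It was not called without control 2 (adjusted p = 0.116), without *Piezo1* cKO 3 (0.0668) or without both libraries numbered 2 (0.18). Unlike *Ldb3*, its counts in the *Piezo1* cKO libraries were nearly equal.

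The 5 tested genes whose log2 CPM followed *Pdlim7* most closely over the 6 libraries were *Orai3* (Pearson r = 0.979), a store-operated calcium channel, *Rpl10a* (0.974), a ribosomal protein, *Supt4a* (0.971), a transcription elongation factor, *Mpzl1* (0.969), a membrane glycoprotein, and *Osbpl3* (0.965), an oxysterol-binding protein. They were the highest of 8545 genes compared, over points that share library and depth, and none was called, with edgeR adjusted p from 0.609 to 0.85.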
